A study of Mus musculus with 5 samples.

Results

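The transcription factors that direct the effector state of regulatory T (Treg) cells were examined through the H3K27ac at their genes. The 7 genes were Irf4, Prdm1, Nfil3, Bhlhe40, Id2, Id3 and Myb, of 21938 protein-coding genes in the annotation. A locus was the gene span of GENCODE M21 on mm10 extended 20 kb on each side, and the peaks that overlapped it were its members, 74 of 124158 peaks in all. H3K27ac is the acetylation of lysine 27 of histone H3, and it was measured by CUT&Tag, in which an antibody directs a transposase to the mark and sequencing adapters are cut into the DNA beside it. Treg cells were isolated from large intestines of C57BL/6 mice at 2 weeks of age and sorted as CD3+CD4+ cells positive for YFP, which the Foxp3 gene expresses together with Cre. The Ctrl group was Foxp3Cre-YFPSetd2 f/+, with 1 floxed and 1 normal Setd2 allele, and the KO group was Foxp3Cre-YFPSetd2 f/f, with 2 floxed alleles. Both groups therefore carried Cre, and Ctrl cells could lose 1 allele of Setd2, the histone H3 lysine 36 methyltransferase. Each group had 2 libraries of 60000 cells pooled from several female and male littermates. No value of the IgG library was analysed here.

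Effector Treg cells are Treg cells that have met antigen, leave the resting program and enter tissues. IRF4 works with BATF and JUN proteins at composite DNA elements to drive this program, and it acts upstream of PRDM1 (Blimp-1), a zinc finger repressor tied to interleukin-10 in mucosal Treg cells. NFIL3 is a basic leucine zipper repressor, BHLHE40 binds E-boxes as a repressor, and MYB is needed for a thymus-derived effector subset. ID2 and ID3 have no DNA-binding domain of their own and hold E proteins away from DNA, and effector lymphocytes tend to exchange ID3 for ID2 as they differentiate. Acetylated promoters and enhancers mark genes open to transcription, so the level of the mark shows where a locus is active but is not a measure of its mRNA.

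Library totals lay between 2395002 and 4712473 counts. Levels (CPM) are counts relative to the library's total in tested peaks after TMM normalization. Testing required a minimum of 10 counts in 2 or more libraries, which 16106 loci and 74550 peaks met, among them all 7 loci and 58 of the 74 peaks. The cell label was checked by lineage markers. Per kb of window, the Foxp3 locus held 4.14 CPM in Ctrl 1 and 4.87 CPM in Ctrl 2, against 4.80 CPM in KO 1 and 7.28 CPM in KO 2. Of the marker lists for other cells, 1 of 8 B and plasma cell, 1 of 8 myeloid, 1 of 6 innate lymphoid and 1 of 8 epithelial genes (Ms4a1, Lyz2, Ncr1 and Krt20) held 0 counts in all 4 libraries, and the others did not. The Cd79a window ranged from 7.18 to 10.8 CPM per kb and was above Foxp3 in each library, the Klrb1c window from 3.19 to 6.07, Cd14 from 3.43 to 3.98, Spi1 from 2.03 to 2.50 and Vil1 from 1.82 to 2.43. Windows can hold peaks of other genes, so these levels do not settle how pure the sort was. At the Setd2 locus itself the CPM was 130 and 179 in Ctrl and 101 and 138 in KO. The Ctrl and KO values of Setd2 overlapped (log2 fold change −0.37, SE 0.27, adjusted p of 1 in edgeR's quasi-likelihood test), and since the mark is not mRNA and the window reaches beyond the floxed part, this does not check the deletion.

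The promoter sequences that RefSeq gives on GRCm38.p6 are shown for Irf4, Prdm1, Nfil3, Id2 and Id3, and that of Myb was searched but is not printed. They span 250 bases before to 50 bases after a start site, 5′ to 3′ on the strand of the gene, and they were found for 6 of the 7 genes. Bhlhe40 is shown by the central 300 bases of its promoter peak. For Prdm1 the centres of its highest peak and of the peak adjacent to it are also given, the latter chosen after its letters were seen. Both centres lie in an intron, while each of these peaks also overlaps an exon. Capitals mark matches to the searched motifs.
Irf4 promoter, chr13:30748983-30749282, plus strand: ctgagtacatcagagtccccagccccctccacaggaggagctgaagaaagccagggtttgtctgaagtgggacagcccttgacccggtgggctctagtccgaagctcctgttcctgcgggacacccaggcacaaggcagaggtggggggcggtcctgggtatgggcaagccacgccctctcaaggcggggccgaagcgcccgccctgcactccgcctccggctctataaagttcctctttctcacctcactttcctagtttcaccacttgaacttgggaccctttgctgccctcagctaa
Prdm1 promoter, chr10:44458699-44458998, minus strand: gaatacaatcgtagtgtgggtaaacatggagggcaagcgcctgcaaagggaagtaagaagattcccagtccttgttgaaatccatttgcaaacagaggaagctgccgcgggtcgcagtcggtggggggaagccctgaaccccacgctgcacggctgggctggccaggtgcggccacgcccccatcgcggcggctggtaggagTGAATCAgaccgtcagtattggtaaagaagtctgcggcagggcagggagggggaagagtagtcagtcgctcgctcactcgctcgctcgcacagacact
Nfil3 promoter, chr13:52980990-52981289, minus strand: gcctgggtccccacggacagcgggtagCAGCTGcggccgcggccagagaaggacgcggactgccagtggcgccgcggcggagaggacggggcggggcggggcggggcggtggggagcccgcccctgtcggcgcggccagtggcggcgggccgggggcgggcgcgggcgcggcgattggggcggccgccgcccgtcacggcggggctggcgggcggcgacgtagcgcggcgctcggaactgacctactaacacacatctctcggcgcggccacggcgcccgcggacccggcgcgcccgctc
Id2 promoter, chr12:25096043-25096342, minus strand: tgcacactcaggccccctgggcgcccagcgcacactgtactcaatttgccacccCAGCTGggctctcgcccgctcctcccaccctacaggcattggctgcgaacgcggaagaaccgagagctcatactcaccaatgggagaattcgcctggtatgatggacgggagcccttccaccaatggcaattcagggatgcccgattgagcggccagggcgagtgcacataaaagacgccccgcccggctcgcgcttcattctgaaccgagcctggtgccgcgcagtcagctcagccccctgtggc
Id3 promoter, chr4:136143572-136143871, plus strand: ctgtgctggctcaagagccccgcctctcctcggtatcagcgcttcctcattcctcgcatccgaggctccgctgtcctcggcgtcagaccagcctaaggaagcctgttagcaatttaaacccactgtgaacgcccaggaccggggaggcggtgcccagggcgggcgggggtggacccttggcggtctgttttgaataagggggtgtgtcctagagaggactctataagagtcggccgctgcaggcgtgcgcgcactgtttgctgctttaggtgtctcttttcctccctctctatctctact
Bhlhe40 promoter peak centre, chr6:108659933-108660232, plus strand: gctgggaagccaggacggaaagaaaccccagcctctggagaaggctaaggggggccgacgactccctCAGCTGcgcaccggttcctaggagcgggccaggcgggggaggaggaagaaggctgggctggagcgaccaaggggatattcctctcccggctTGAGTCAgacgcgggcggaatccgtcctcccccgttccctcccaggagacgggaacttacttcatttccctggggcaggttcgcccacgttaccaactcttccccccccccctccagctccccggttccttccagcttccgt
Prdm1 highest peak centre, chr10:44447294-44447593, plus strand: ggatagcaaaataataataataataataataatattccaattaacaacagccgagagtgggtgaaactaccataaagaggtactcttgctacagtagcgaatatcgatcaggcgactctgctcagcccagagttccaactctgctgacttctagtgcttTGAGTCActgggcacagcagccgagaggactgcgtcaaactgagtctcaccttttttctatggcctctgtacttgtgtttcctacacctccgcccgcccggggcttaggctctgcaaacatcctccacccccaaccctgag
Prdm1 adjacent intronic peak centre, chr10:44450363-44450662, plus strand: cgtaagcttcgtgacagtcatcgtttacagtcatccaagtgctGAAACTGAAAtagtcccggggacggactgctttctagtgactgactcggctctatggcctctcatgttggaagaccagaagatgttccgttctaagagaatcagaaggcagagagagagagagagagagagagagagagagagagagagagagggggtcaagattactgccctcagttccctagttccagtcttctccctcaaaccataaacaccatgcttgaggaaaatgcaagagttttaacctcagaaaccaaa

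The motifs searched on both strands were the E-box of BHLHE40 (CACGTG), the NFIL3 site (TTANGTAA), the AP-1 site bound by BATF and JUN proteins (TGANTCA), the MYB site (TAACGG or TAACTG or CAACGG or CAACTG), the E-box of E proteins (CAGCTG) and the interferon-stimulated response element (ISRE) that IRF proteins bind, GAAA repeated after any 2 bases. None of these letter strings contains another. The promoters of Id2 and Nfil3 each held CAGCTG, at positions 55 and 28 of the window, a motif present in 16.3% of 32817 RefSeq promoters. The Prdm1 promoter held an AP-1 match, TGAATCA, at position 203, and 7.81% of promoters held one. No searched motif was found in the promoters of Irf4, Id3 or Myb.

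Among the central 300 bases of the 74 member peaks, 11 held an AP-1 match (14.9%, against 9.39% of all 124158 peaks), 14 held CAGCTG (18.9% against 16.4%) and 19 a MYB match (25.7% against 29.3%). An ISRE match was found in 3 (4.1% against 3.64%), CACGTG in 2 (2.7% against 4.56%) and the NFIL3 motif in 0, where 2.49% of all peaks held it. The 3 peaks with an ISRE match in these central bases belonged to Prdm1, Bhlhe40 and Myb. That of Prdm1 is the run of capitals in the peak adjacent to its highest. Matches outside the centre do not enter these counts. Over its whole length, the wide Irf4 peak at the start site held 3 ISRE, 3 NFIL3, 7 AP-1 and 5 CACGTG matches. A gene body peak of Nfil3 likewise held 2 ISRE and 1 NFIL3 matches. No share over all whole peaks was computed to set beside these. The centre of the Bhlhe40 promoter peak held CAGCTG and an AP-1 match. The promoters also differed in base composition. The Nfil3 promoter was 81.7% G and C with 54 CpG sites, above 99.5% of promoters in G and C content, and the Irf4 promoter was 61.0% G and C with 11 CpG sites.

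The 7 loci differed far more from each other than between genotypes. To compare genes of different length, CPM was divided by the kb of the window. Irf4 held 5.53 CPM per kb over the 4 libraries, Bhlhe40 3.23, Prdm1 1.87, Myb 1.30, Nfil3 1.22, Id2 1.18 and Id3 0.775. The ranges of Irf4, Bhlhe40 and Prdm1 did not overlap each other or that of Myb, while the lowest library of Prdm1 (1.42) was under the highest of Id2 (1.44). Per kb, these 3 kept ranks 1, 2 and 3 in each of the 4 libraries. Without the division by window length, the order of Bhlhe40 and Prdm1 was reversed in each library. Prdm1 then held 250 and 187 CPM in Ctrl and 297 and 251 CPM in KO. Bhlhe40 held 176 and 115 CPM in Ctrl and 186 and 121 CPM in KO. The ranges of Myb, Nfil3, Id2 and Id3 overlapped from neighbour to neighbour, so the order among these 4 was not separated. Irf4 stood at the 96.0th percentile of all tested loci by this level, Bhlhe40 at the 86.8th, Prdm1 at the 72.6th and Id3 at the 43.1st.

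**Figure D1:**
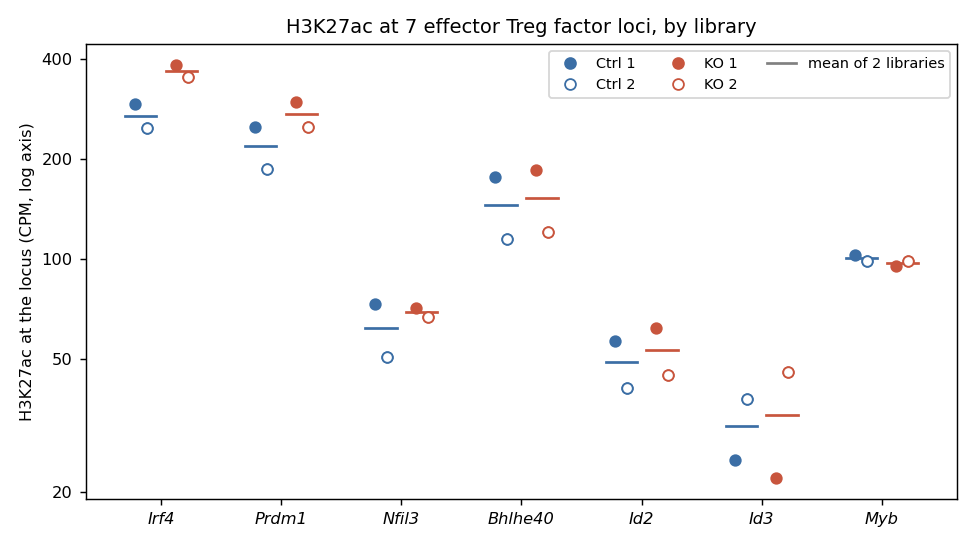
H3K27ac (CPM, log axis) of each locus in each library, with Ctrl in blue, KO in red, replicate 1 filled, replicate 2 open, and a line for the mean of 2 libraries. Irf4 and Prdm1 were higher in each KO library than in either Ctrl library, and Id3 was the locus where replicate 2 was the higher library in both groups.

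In the fit of genotype alone, none of the 7 loci passed an adjusted p of 0.05 between KO and Ctrl. By edgeR's quasi-likelihood test the same held for all 16106 loci (0% called), and at an unadjusted p under 0.05 KO was higher at 54 loci (0.335%) and lower at 355 (2.2%), none of them a member. With a loess offset on abundance this split was 98 higher and 273 lower. DESeq2 called 0 loci as well, with 305 at an unadjusted p under 0.05, and limma called 0. Non-overlapping groups with KO higher were found at 2 of the 7 loci, against 11.9% of all tested loci, and with KO lower at 1 of 7, against 16.8%. The median log2 fold change was 0.13 over the members and −0.01 over all tested loci, and 6 of the 7 members were above 0. With 2 libraries a group, an exact permutation test cannot give a two-sided p below 0.33. The adjusted p of each of the 7 loci was 1 in edgeR, and that of each tested member peak at least 0.998. In bulk libraries a smaller number of cells with the mark and less of the mark per cell cannot be told apart.

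**Figure D2:**
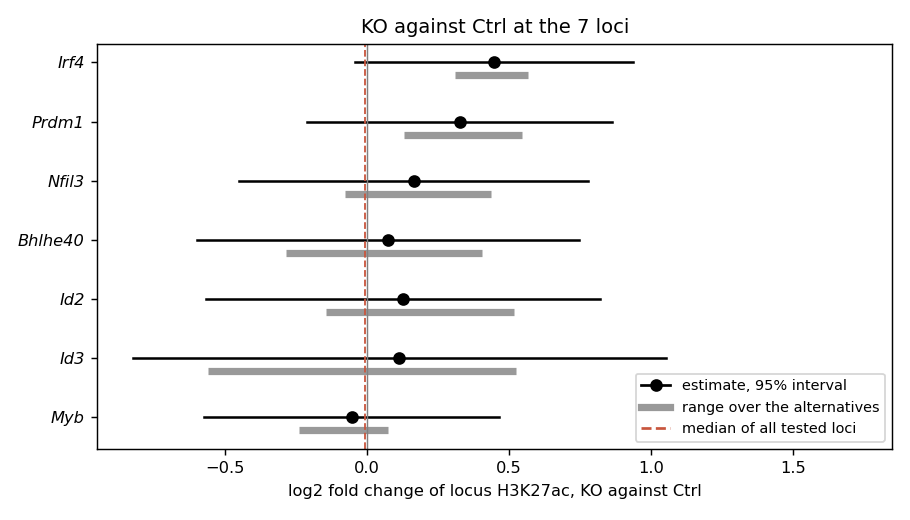
Log2 fold change of each locus in KO against Ctrl, with its 95% confidence interval in black, the range over the alternative settings in grey, and the median of all tested loci as a dashed line. Every black interval includes 0, and the grey ranges of Irf4 (0.31 to 0.57) and Prdm1 (0.13 to 0.54) lie above 0.

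Irf4, the interferon regulatory factor at the head of the effector program, had the highest level and the largest difference. Its locus held 294 CPM in Ctrl 1 and 247 CPM in Ctrl 2, against 385 CPM in KO 1 and 352 CPM in KO 2. Both KO libraries were the higher ones and the groups did not overlap. Ctrl averaged 270.5 ± 32.7 and KO 368 ± 22.8 CPM (SD, n = 2 each). The log2 fold change was 0.45 (SE 0.22, 95% confidence interval −0.04 to 0.94), with an unadjusted p of 0.0698 in edgeR. Irf4 ranked 611th by p among the tested loci. Without 1 Ctrl or KO library at a time the log2 fold change of Irf4 lay between 0.33 and 0.57.

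Most of the Irf4 signal came from a single broad peak, chr13:30746837-30761906, which starts upstream of the start site and runs through most of the gene. It was 15070 bp wide, where the median peak of the table was 477 bp, and it ranked 57th in width and 149th in mean CPM of 124158 peaks. It took 69.4% of the CPM of the locus. Its counts were 458 and 564 in Ctrl and 720 and 1018 in KO, or 207 and 168 CPM against 268 and 244 CPM. Again the KO values were the higher ones (log2 fold change 0.45, SE 0.25, unadjusted p of 0.0742 in edgeR), but with a loess offset on abundance the log2 fold change was 0.17. The Irf4 promoter printed above lies within this peak.

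Outside it, the last gene body peak of Irf4, chr13:30765250-30767055, held 10.9 and 19.9 CPM in Ctrl and 25.3 and 26.8 CPM in KO (log2 fold change 0.74, SE 0.39, unadjusted p of 0.0604 in edgeR). The Ctrl libraries differed from each other by 9.08 CPM and the KO libraries lay above both. The peak with the highest log2 fold change of the locus was downstream of the gene, chr13:30769450-30770536, at 7.24 and 4.46 CPM in Ctrl and 9.69 and 10.5 CPM in KO (0.81, SE 0.58). The lowest was chr13:30745925-30746329, a small peak upstream of the broad one, at 6.33 and 4.17 CPM in Ctrl and 4.84 and 2.16 CPM in KO (−0.60, SE 0.80), where the groups overlapped. In all, 7 of the 9 tested Irf4 peaks were above 0.

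Prdm1 encodes Blimp-1, and its mark was spread over many peaks along the gene. The locus held 250.2 and 187 CPM in Ctrl and 297 and 251 CPM in KO. The KO libraries were both above the Ctrl libraries, but KO replicate 2 and Ctrl replicate 1 differed by only 0.431 CPM. Ctrl averaged 218 ± 45.0 and KO 274 ± 32.5 CPM (SD, n = 2 each), a log2 fold change of 0.33 (SE 0.24, 95% confidence interval −0.21 to 0.86, unadjusted p of 0.204 in edgeR). The log2 fold change of Prdm1 was 0.13 without Ctrl replicate 2, 0.18 without KO replicate 1, 0.54 without Ctrl replicate 1 and 0.22 with a minimum of 50 counts.

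Gene body peaks took 58.1% of the CPM of Prdm1 and its 2 promoter peaks 22.7%. The first TSS used for Prdm1, at 44458748, lies inside its gene span, which reaches 44528501. Peaks near that end of the span were therefore classed as upstream and not as promoter peaks. The upstream class took 4.76% of the CPM. The highest peak, chr10:44445977-44448909, overlaps an exon in the gene body and held 57.9 and 41.1 CPM in Ctrl and 56.6 and 54.1 CPM in KO, with overlapping groups (log2 fold change 0.17, SE 0.31). The promoter peak with the higher level, chr10:44454368-44457515, held 31.2 and 35.7 CPM in Ctrl and 31.3 and 38.8 CPM in KO, again with overlap (0.07, SE 0.33). A weak neighbour of the highest peak, chr10:44445091-44445739, had 4 and 5 counts in Ctrl and 20 and 17 counts in KO. This was the smallest p among the members' peaks (log2 fold change 1.78, SE 0.93, unadjusted p of 0.0560 in edgeR), and the groups did not overlap.

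Along Prdm1 the estimates leaned to one side without any peak passing the test. Of its 16 tested peaks, 15 were above 0, including 7 of 7 gene body peaks, where 49.2% of all tested peaks were above 0. The 1 peak below 0, chr10:44422619-44422896, was downstream of the gene and held 9, 10, 8 and 12 counts in Ctrl 1, Ctrl 2, KO 1 and KO 2 (log2 fold change −0.25, SE 0.99). These peaks were measured in the same 4 libraries and are not independent of each other. The share of the Prdm1 counts in promoter peaks was 23.5% and 24.9% in Ctrl and 20.6% and 22.9% in KO. Both KO shares were lower (means of 24.2% and 21.8%), at the smallest p the exact permutation test allows (two-sided p = 0.33). The exact 95% binomial intervals, which cover counting error only, were 20% to 27.3% for Ctrl 1 and 17.8% to 23.6% for KO 1, and they overlapped.

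**Figure D3:**
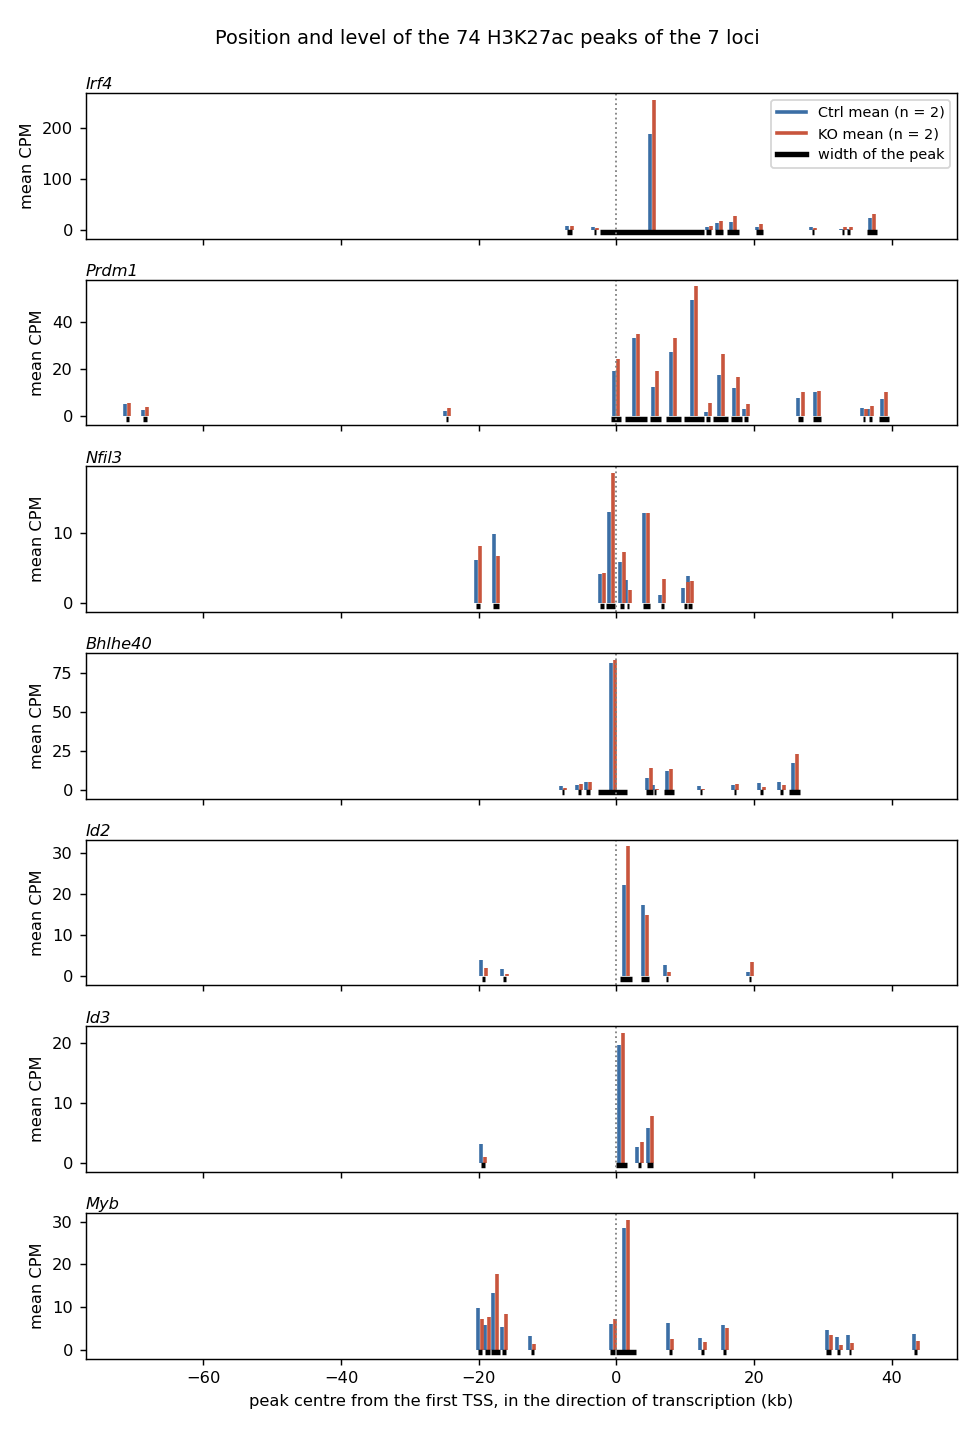
Mean CPM in Ctrl (blue) and KO (red), n = 2 libraries each, of each of the 74 peaks against the distance of its centre from the first TSS of the gene in kb, with black bars for peak width and a dotted line at the TSS. Irf4 and Bhlhe40 are led by 1 promoter peak, Prdm1 by a run of peaks over its gene body, and Myb by a promoter peak and a group of peaks upstream. The vertical axes differ between genes. For Prdm1 the first TSS used lies inside the gene span.

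Nfil3, whose product innate lymphoid cells need for their development, held 73.3 and 50.9 CPM in Ctrl and 71.5 and 67.1 CPM in KO. The KO values lay between the Ctrl values (log2 fold change 0.16, SE 0.27, 95% confidence interval −0.45 to 0.78). No peak covered the TSS. The nearest one, chr13:52981218-52982574, began 145 bp upstream of it and was also the highest of the locus, at 15.8 and 10.1 CPM in Ctrl and 22.4 and 14.9 CPM in KO. Its groups overlapped (log2 fold change 0.53, SE 0.44), and it had the highest log2 fold change of the 8 tested peaks. The lowest, chr13:52979181-52979500, held 11, 5, 2 and 12 counts in Ctrl 1, Ctrl 2, KO 1 and KO 2 (−0.73, SE 1.24). A distal peak at −17.54 kb from the TSS was the 1 Nfil3 peak lower in both KO libraries, at 10.4 and 9.23 CPM in Ctrl and 6.71 and 6.71 CPM in KO (log2 fold change −0.54, SE 0.56). The next peak, at −20.09 kb, was the 1 Nfil3 peak higher in both KO libraries. It held 8.14 and 4.17 CPM in Ctrl and 8.20 and 8.15 CPM in KO (0.44, SE 0.60).

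Bhlhe40, the E-box repressor induced on T cell activation, held 176 and 115 CPM in Ctrl and 186 and 121 CPM in KO. Replicate 1 was 1.54 times replicate 2 in both groups, and the groups overlapped almost fully (log2 fold change 0.07, SE 0.30, 95% confidence interval −0.60 to 0.74). Its promoter peak, chr6:108658024-108662141, was 4118 bp wide and took 55.3% of the locus. It held 101 and 61.6 CPM in Ctrl and 103 and 64.2 CPM in KO (log2 fold change 0.04, SE 0.29). The start of the antisense gene 0610040F04Rik lies in this peak and the gene Gm17055 overlaps it in part. As H3K27ac carries no strand, their shares could not be told apart. The largest positive estimate was a gene body peak, chr6:108664870-108665931, at 9.50 and 5.95 CPM in Ctrl and 18.3 and 9.34 CPM in KO, with overlap (0.84, SE 0.51). The largest negative one, chr6:108681462-108681932, held 17, 3, 3 and 11 counts in Ctrl 1, Ctrl 2, KO 1 and KO 2 (−1.08, SE 1.09).

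Id2 and Id3, the paired inhibitors of E proteins, had low and compact signals. Id2 held 57.0 and 41.1 CPM in Ctrl and 62.2 and 44.8 CPM in KO (log2 fold change 0.13, SE 0.31, 95% confidence interval −0.57 to 0.82). The groups overlapped, and replicate 1 was 1.39 times replicate 2 in each group. Promoter peaks took 83.9% of the locus. The peak over the start site, chr12:25094895-25096633, held 28.0 and 16.4 CPM in Ctrl and 38.4 and 24.9 CPM in KO (0.52, SE 0.36), while the other promoter peak, chr12:25092389-25093635, past the end of the gene, held 23.5 and 11 CPM in Ctrl and 18.3 and 11.5 CPM in KO. The promoter share of Id2, with promoter peaks within 3 kb of the start site, was 90.5% and 66.7% in Ctrl and 91.0% and 81.3% in KO, and the groups overlapped (two-sided exact permutation p of 0.667). With a limit of 1 kb, which leaves the peak over the start site, it was 49.2% and 39.9% in Ctrl and 61.7% and 55.6% in KO. There both KO shares exceeded both Ctrl shares, at the smallest two-sided exact permutation p the design allows, so the separation rests on the limit chosen. The lowest tested Id2 peak, chr12:25116252-25116636, held 6, 18, 4 and 10 counts in Ctrl 1, Ctrl 2, KO 1 and KO 2 (log2 fold change −1.04, SE 1.05).

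Id3 held 24.9 and 38.1 CPM in Ctrl and 22.0 and 46.0 CPM in KO. Each group had 1 low and 1 high library, and the groups overlapped (log2 fold change 0.11, SE 0.42, 95% confidence interval −0.83 to 1.05). Its promoter peak, chr4:136143375-136145071, took 63.3% of the locus with 45 and 64 counts in Ctrl and 35 and 127 counts in KO (log2 fold change 0.17, SE 0.39). The highest log2 fold change was at a peak downstream, chr4:136147936-136148877, with 7, 29, 12 and 47 counts in Ctrl 1, Ctrl 2, KO 1 and KO 2 (0.40, SE 0.60). The share of Id3 counts in the promoter peak ranged from 50% in Ctrl 2 to 81.8% in Ctrl 1, so the 2 libraries of Ctrl spanned those of KO.

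The ratio of the Id2 to the Id3 level separated the libraries by replicate number and not by genotype. It was 2.29 in Ctrl 1 and 2.83 in KO 1, and 1.08 in Ctrl 2 and 0.974 in KO 2. The Id3 counts behind these ratios were low, at 55 in Ctrl 1, 59 in KO 1, 128 in Ctrl 2 and 192 in KO 2. Replicate 1 was also the library with the smaller total in both groups. Irf4, Prdm1, Nfil3, Bhlhe40 and Id2 were higher in replicate 1 than in replicate 2 of both groups, Id3 was lower in both, and Myb differed in direction. The summed level of 6 innate lymphoid markers moved the same way, at 640 CPM in Ctrl 1 and 683 CPM in KO 1, and 466 CPM in Ctrl 2 and 482 CPM in KO 2. Klrb1c led it with 282 and 308 CPM in the replicate 1 libraries and 162 and 176 CPM in the replicate 2 libraries, while Ncr1 was at 0 in all 4. The summed B and plasma cell markers were 428 and 435 CPM in the replicate 1 libraries and 523 and 587 CPM in the replicate 2 libraries. Myeloid sums ranged from 451 to 485 CPM and epithelial sums from 246 to 271 CPM. The Treg and T cell markers, among them Ctla4, were the only one of these marker lists whose sums did not overlap between genotypes, at 3221 and 3661 CPM in Ctrl and 3791 and 4541 CPM in KO. Of its 7 measured genes, 7 were above 0 (median log2 fold change 0.24, against −0.01 over all tested loci). At 3 of the 7 the groups did not overlap with KO the higher, against 11.9% of all tested loci. These loci were also high in level, with a median of 6.17 CPM per kb against 0.961 over all tested loci. Irf4 and Prdm1 were likewise higher in both KO libraries. The part of these markers in the levels of the 7 loci was not tested.

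**Figure D4:**
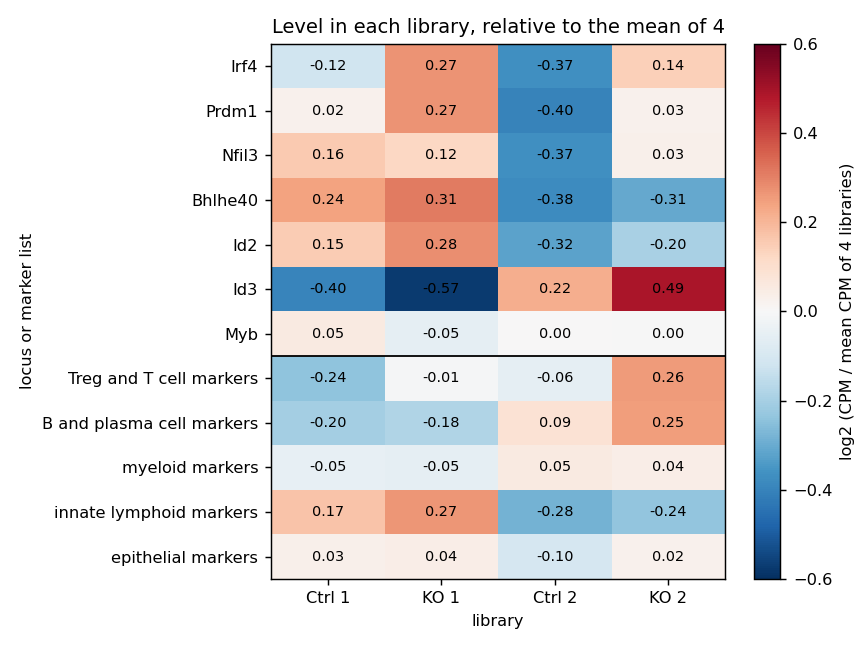
Level of each locus and each summed marker list in each library (columns), as log2 of its CPM over the mean of the 4 libraries, with red above and blue below that mean. Columns are ordered by replicate number, and Bhlhe40, Id2 and the innate lymphoid markers are above their mean in replicate 1 of both groups, while Id3 is below it.

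Myb, whose product marks a thymus-derived effector subset, was the steadiest locus. It held 103 and 99.1 CPM in Ctrl and 95.4 and 99.0 CPM in KO, and the highest library was 1.08 times the lowest. KO was lower without overlap, by 0.147 CPM for the nearest pair (log2 fold change −0.05, SE 0.23, 95% confidence interval −0.57 to 0.47), and with a loess offset on abundance the estimate was 0.0049. Peaks upstream took 40.1% of the locus and the 2 promoter peaks 36.4%. Most of the upstream share lay in peaks that overlap the noncoding gene Gm40608, the largest with 15.6% of the locus, so it could not be assigned to Myb alone. The promoter peak at the TSS, chr10:21158117-21160988, held 25.3 and 31.5 CPM in Ctrl and 26.5 and 34.5 CPM in KO (log2 fold change 0.10, SE 0.35).

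The largest estimates of either sign at Myb came from small peaks. An intragenic peak, chr10:21152928-21153388, had 12 and 23 counts in Ctrl and 6 and 12 counts in KO, or 5.43 and 6.84 CPM against 2.24 and 2.88 CPM. Both KO libraries were lower (log2 fold change −1.24, SE 0.80, unadjusted p of 0.121 in edgeR). It overlaps the antisense gene Gm26577. The 3 tested gene body peaks of Myb were all below 0, with the next values at −0.43 and −0.25. An upstream peak, chr10:21177061-21177665, which overlaps the noncoding gene Gm40608, held 5.88 and 4.46 CPM in Ctrl and 8.20 and 8.39 CPM in KO (0.69, SE 0.62), and the KO libraries were both above.

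Over all 58 tested member peaks, edgeR called 0 at an adjusted p under 0.05, and 0 passed an unadjusted p of 0.05. Among the 74550 peaks tested in all, 1 was called higher (0.00134%) and 0 lower (0%). Before adjustment (p under 0.05), KO was higher at 1079 (1.45%) and lower at 2081 peaks (2.79%), and DESeq2 called 0. With total counts as library size this split was 770 higher and 2517 lower. The groups did not overlap, with KO higher, at 11 member peaks, 4 of them at Irf4 and 4 at Prdm1, and at 16.9% of all tested peaks. With KO lower this was so at 5 member peaks and at 16.4% of all tested peaks. The median log2 fold change of the 58 peaks was 0.20 against −0.01 over all tested peaks, and 43 were above 0 and 15 below. Without KO replicate 1 the count above 0 was 27 of 53 peaks. The other 16 member peaks were under the count minimum. They include 4 of Myb, 3 of Bhlhe40, 3 of Id2, 2 of Irf4, 2 of Nfil3, 1 of Prdm1 and 1 of Id3, and a difference at them was not tested in the main fit.

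**Figure D5:**
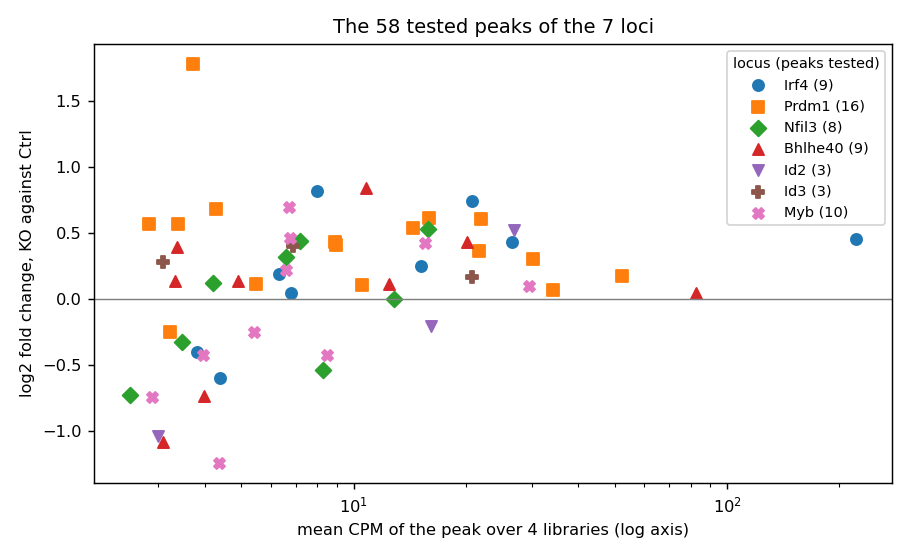
Log2 fold change in KO against Ctrl of the 58 tested peaks against their mean CPM over the 4 libraries (log axis), by locus. The estimates spread most at low CPM, from −1.24 at Myb to 1.78 at Prdm1, and the broad Irf4 peak stands alone at the right with 0.45.

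The genes around the 7 factors were read from lists. For the 15 partners and cooperating factors such as Batf, Junb, Maf and Rel, 11 were above 0 and 4 below, with a median log2 fold change of 0.16. Ikzf3 (Aiolos) was the highest, at 630.2 and 812 CPM in Ctrl and 906 and 1172 CPM in KO, without overlap (log2 fold change 0.53, SE 0.22, unadjusted p of 0.0404 and adjusted p of 1 in edgeR). Its log2 fold change was 0.27 with a loess offset and 0.29 without KO replicate 2. Batf3 was the lowest at 35.3 and 34.8 CPM in Ctrl and 28.7 and 23.5 CPM in KO (−0.43, SE 0.33). Among the 19 effector Treg genes, which include Icos, Il10 and Tigit, 16 were above 0 and 3 below, and at 10 the groups did not overlap with KO the higher (11.9% of all tested loci). Ctla4, an inhibitory receptor of Treg cells, led them at 632 and 680 CPM in Ctrl and 850 and 949 CPM in KO (0.46, SE 0.19, unadjusted p of 0.0424 and adjusted p of 1 in edgeR), and with a loess offset its value was 0.21. Nt5e, the ectonucleotidase CD73, was the lowest at 397 and 359 CPM in Ctrl and 331 and 341 CPM in KO (−0.17, SE 0.21).

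The factors of the resting program, such as Tcf7, Lef1 and Bach2, showed no lean to the opposite side in the main fit. Of these 10 loci 7 were above 0 and 3 below (median log2 fold change 0.16), where 49.3% of all tested loci were above 0. They ran from Satb1 at −0.03 to Bcl11b at 0.31. At 1 both KO values exceeded both Ctrl values, against 11.9% of all tested loci. The list median was −0.011 with a loess offset, and −0.034 to 0.23 without 1 library at a time. The value of Bcl11b was 0.0067 with a loess offset and 0.069 without KO replicate 2. The E proteins that ID2 and ID3 bind were Tcf3, at 0.05, Tcf12, at 0.14, and Tcf4, at 0.98. Tcf4 held 85 and 79 counts in Ctrl and 213 and 176 counts in KO over a window of 386 kb, with the KO libraries above (SE 0.39, unadjusted p of 0.0324 and adjusted p of 1 in edgeR). Its log2 fold change was 0.43 without KO replicate 1, 0.65 without Ctrl replicate 2 and 0.62 with peaks assigned by nearest TSS. Of 13 paralogs of the members, Id1 and Id4 were under the count minimum and 7 of the other 11 were above 0 (median 0.08), from Irf5 at −0.36 to Irf1 at 0.46. Of 12 clock and PAR leucine zipper genes, which share binding sites with NFIL3 or targets with BHLHE40, 8 were above 0 and 4 below (median 0.17), from Hlf at −0.30 to Per1 at 0.39. Without the replicate number as a term, no locus of these lists had an adjusted p under 0.05 in edgeR, DESeq2 or limma.

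For each factor the locus on another chromosome with the closest levels over the 4 libraries was also found, as the smallest Euclidean distance of log2 CPM. For Irf4 this was Exosc8 (distance 0.11), with 284 and 247 CPM in Ctrl and 368 and 372 CPM in KO. For Prdm1 it was Abcb8 (0.18), for Nfil3 Mcee (0.09), for Bhlhe40 Nxt1 (0.12), for Id2 Plekhm3 (0.05), for Id3 Klhl26 (0.25) and for Myb Abcf3 (0.07). With 4 libraries such a match describes levels alone.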

How the data were processed

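H3K27ac CUT&Tag was profiled in large intestinal Treg cells of Ctrl and KO mice, 2 libraries each. The authors aligned reads with Bowtie2 to mm10, and called and merged peaks using MACS2, with IgG as control, and bedtools (versions not given in the sources used here). The deposited values are raw counts per merged peak, without normalization. Peaks were called on the libraries compared, and reads with several matches were not counted.

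Counts of peaks overlapping a protein-coding span of GENCODE M21 basic extended 20 kb were summed per locus. A peak could enter several loci, but no other coding gene lay in the 7 windows. Loci and peaks that reached 10 counts in 2 or more libraries were tested with the quasi-likelihood test of edgeR 4.0.16 (R 4.3.3, TMM, no covariate, Benjamini-Hochberg over all tested loci or peaks). The prior degrees of freedom were 7.43 for loci and infinite for peaks, where a peak's own spread did not enter. A promoter peak lay within 3 kb of a TSS of the basic annotation. Promoter shares were compared by two-sided exact permutation tests (Python 3.11.15, scipy 1.17.1), with exact binomial intervals at the 95% level. Library totals of 2395002 to 4712473 counts limit the precision of weak peaks. If both mates of a pair were counted, fewer fragments lie behind each count, so halved counts were an alternative.

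For each gene the peak at the TSS, the highest peak, and the peaks with the highest and lowest log2 fold change or an unadjusted p under 0.05 were named, and for each list the highest and lowest locus and each with an unadjusted p under 0.05. Other peaks named were chosen after their values were seen. The 7 genes and the lists were chosen with earlier results of these data known. Alternatives were DESeq2 1.42.0, limma 3.58.1 on log2 CPM (prior count 2), other library scaling, count minimums and windows, the replicate number as a block, and leaving out each library. The code was tested on simulated data. Promoters came from RefSeq (GRCm38.p6). Each library is a pool of mice, so any spread between libraries is one between pools. The edgeR p-values of loci drew in part, and those of peaks wholly, on a spread fitted over all of them.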

Additional observations from a re-analysis of the deposited data

How the results depend on the processing

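No member locus passed an adjusted p of 0.05 in edgeR, DESeq2 or limma under the alternatives run, except Irf4 and Prdm1 with the replicate number as a block. Log2 fold changes of Irf4 and Prdm1 stayed above 0 under each alternative run. The depth limits weak peaks most, and 16 of the 74 member peaks were under the count minimum of the main fit. Without a count minimum all 74 were fitted. The causes of the moves below were not tested.

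With the replicate number as a block, the log2 fold change was 0.45 at Irf4 (adjusted p = 0.000128, edgeR) and 0.34 at Prdm1 (adjusted p = 0.0164, edgeR), and the other 5 member loci kept their call. The block called 830 loci higher and 802 lower, and 152 peaks higher and 59 lower, of which 1 was a member peak, the broad Irf4 peak (log2 fold change 0.46). Among the other named loci it called Ikzf3 (adjusted p = 1.77e-10, edgeR), Ctla4 (1.5e-07), Irf1 (5.32e-05), Bcl11b (8.47e-05), Tcf4 (0.000656) and Per1 (0.00132) higher and Setd2 (0.0415) lower. That fit left 1 residual degree of freedom, and the fitted prior degrees of freedom were infinite. The deviations from the group means of Ctrl 1 and KO 1 had a correlation of 0.253 over peaks and 0.537 over loci, and the study's methods describe pools of littermates. Neither the methods nor the labels say that a replicate number marks a litter, batch or day, and there are only 2 pairs, so the numbers were taken as shared numbers only and whether they pair the libraries was not settled.

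A minimum of 50 counts, which moved the median log2 fold change of all loci to −0.119, gave −0.031 at Bhlhe40 and −0.022 at Id3, −0.054 at the higher Prdm1 promoter peak, −0.064 at the Bhlhe40 promoter peak, −0.024 at the Myb promoter peak and −0.073 at Tcf3. With it 0 peaks were called higher, and list medians were 0.037 for partners, 0.036 for the resting program, 0.021 for E proteins, −0.0088 for paralogs, 0.045 for clock genes and 0.12 for effector Treg genes. A loess offset gave 0.0049 at Myb, 0.17 at the broad Irf4 peak, 0.023 at the highest Prdm1 peak, 0.29 at Irf1, 0.24 at Per1, −0.051, −0.13 and −0.0088 at the promoter peaks of Prdm1, Bhlhe40 and Myb, 1 peak called lower, and list medians of −0.050 for partners, −0.011 for the resting program, 0.20 for E proteins, 0.0048 for paralogs and 0.13 for effector Treg genes. Total counts as library size gave −0.014 at the Bhlhe40 promoter peak, −0.0042 at Tcf3 and 0.083 for E proteins. DESeq2 called 0 peaks higher, limma called 2, and without a count minimum edgeR called 0, with Satb1 at 0.0085. A 50 kb window gave −0.00017 at Bhlhe40, 0.073 at Myb, 0.014 at Setd2, 0.011 at Satb1 and 0.35 at Hlf. Peaks assigned by nearest TSS gave 0.17 at Setd2, 0.078 at Satb1, 0.19 at Hlf and 0.20 for E proteins. The gene span alone gave 0.0041 at Satb1, −0.42 at Tcf3, 0.00083 for paralogs and 0.31 for effector Treg genes, and a 5 kb window 0.0065 at Satb1 and −0.082 at Tcf3. With a promoter limit of 1 kb the promoter share of Irf4 differed by 0.289 percentage points.

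Leaving out 1 library at a time, the log2 fold change ranged from −0.079 to 0.44 at Nfil3, −0.29 to 0.40 at Bhlhe40, −0.14 to 0.37 at Id2 and −0.56 to 0.52 at Id3. Nfil3 was below 0 without Ctrl replicate 2, Bhlhe40 and Id2 without Ctrl replicate 2 or KO replicate 1, and Id3 without Ctrl replicate 1 or KO replicate 2. The lone library of a group is assumed there to vary like the other group. Peaks called higher numbered 0 to 1. Among peaks, the range was −0.13 to 0.19 at the higher Prdm1 promoter peak, −0.062 to 0.42 at the highest Prdm1 peak, −0.36 to 0.43 at the Bhlhe40 promoter peak, −0.62 to 0.61 at the Id3 promoter peak, −0.47 to 1.35 at the Id3 downstream peak and −0.14 to 0.28 at the Myb promoter peak. It was −0.22 to 0.19 at Satb1, −0.28 to 0.38 at Tcf3 and −0.79 to 0.39 at Hlf, and, without a change of sign, 0.43 to 1.35 at Tcf4, 0.29 to 0.73 at Ikzf3, 0.12 to 0.69 at Irf1, 0.069 to 0.49 at Bcl11b and 0.17 to 0.53 at Per1. List medians ranged from 0.050 to 0.27 for partners, −0.034 to 0.23 for the resting program, 0.062 to 0.38 for E proteins, 0.072 to 0.16 for paralogs, 0.063 to 0.27 for clock genes and 0.13 to 0.29 for effector Treg genes. Differences of the promoter share, in percentage points, ranged from −2.28 to 0.891 at Irf4, −0.21 to 9.83 at Nfil3, −3.04 to 0.772 at Bhlhe40, −4.33 to 19.5 at Id2 and −19.1 to 12.7 at Id3. Before adjustment (p under 0.05) the main edgeR fit gave 0 member peaks, and the alternatives that kept all libraries gave up to 5.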
